A study of Mus musculus with 8 samples.

Results

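The 10 transcripts described here are the messenger RNAs mt-Nd1, mt-Nd2, mt-Nd3, mt-Nd4, mt-Nd5, mt-Co1, mt-Co2, mt-Co3, mt-Atp6 and mt-Cytb, which are encoded by the mitochondrial genome. They were taken by name from the 20408 genes found in any of 8 single-cell RNA-seq libraries of sorted tumour endothelial cells (ECs), and all 10 were present in every library. They were also chosen because their summed share of the transcripts was lower in libraries of cGAMP-treated tumours, so every difference between cGAMP and PBS given for them is a description and carries no test. The 3 other protein-coding mitochondrial genes in the tables, mt-Nd4l, mt-Nd6 and mt-Atp8, are given beside them, which makes 13 in all.

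The libraries came from female mice with spontaneous MMTV-PyMT breast tumours, in which a mammary promoter drives the viral middle T oncogene, or with implanted breast tumours grown from cultured MMTV-PyMT tumour cells placed in the mammary fat pad. The labels give the strain as c57bl/6, whereas the methods name FVB/N MMTV-PyMT mice and FVB recipients, so the strain is not settled. The spontaneous tumours were treated at 9 weeks of age and the recipients were 8 to 9 weeks old when the cells were implanted. In each model 2 mice received an intratumoural injection of PBS and 2 of cGAMP, a cyclic dinucleotide that activates the innate sensor STING, and live CD45- CD31+ cells were sorted 3 h later. Each of the 4 groups, named by model and injection, therefore held 2 libraries, and replicate numbers name libraries only.

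Of 8204 deposited cells, 7159 carried a Pecam1 value above 0 and were used as ECs, 601 to 1529 per library. In these cells all 9 endothelial markers were found, with a summed level of 5580 to 6697 CPM (UMIs of a gene relative to all UMIs of a cell, on the usual CPM scale, averaged over cells). The ECs held 7451522 to 16338968 unique molecular identifiers (UMIs, each standing for 1 captured RNA molecule) per library. The median was 9523 to 14708 UMIs per EC in 7 libraries and 3049 in replicate 1 of implanted cGAMP, where 37.9% of ECs had under 2000 UMIs against 3.28% to 10.6% elsewhere. Any pair of libraries shared at most 3 cell barcodes. Cells with more than 10% mitochondrial transcripts had been removed before deposit, and the highest share left in any library was 9.88% to 9.997%, so the upper end of each library is cut off.

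Mitochondria keep a small circular genome that is transcribed from both strands into long precursors, which are cut mostly at the tRNAs that lie between the messages. Its protein-coding messages specify core subunits of the respiratory chain and of ATP synthase, and all other subunits are made from nuclear genes. Endothelial cells draw much of their ATP from glycolysis, and their mitochondria are known as well for signalling by reactive oxygen species. The 3′ ends of most mitochondrial messages are set by such cuts and then carry a short poly(A) tail, which is what an oligo(dT) primer captures in this assay.

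The 10 genes all lie on the plus strand of chrM in GRCm38 (GENCODE vM21 annotation, the same assembly as mm10), are single-exon and without annotated UTRs, and range from 348 to 1824 bases in length and from 33.1% to 39.9% in GC content. The last 30 bases are printed for 6 of them because the genes differ in what follows the 3′ end. Capitals mark the stop codon, or the single T of a stop codon that is left incomplete in the gene.

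mt-Co1: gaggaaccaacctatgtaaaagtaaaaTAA
mt-Nd5: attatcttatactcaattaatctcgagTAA
mt-Cytb: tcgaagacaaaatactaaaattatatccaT
mt-Nd4: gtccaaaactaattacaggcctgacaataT
mt-Co3: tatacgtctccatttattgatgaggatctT
mt-Atp6: gtaagcctatatctacatgataatacaTAA

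The mt-Co1 gene (chrM:5328-6872) ends 69 bases before the next gene on its strand, the tRNA gene mt-Td, and the tRNA gene mt-Ts1 lies on the other strand in between. The mt-Nd5 gene (chrM:11742-13565) ends 579 bases before mt-Cytb, and mt-Nd6 and mt-Te lie on the other strand there. In the remaining 8 of the 10 genes the next gene on the strand starts within 5 bases or overlaps. The mt-Cytb gene (chrM:14145-15288), the mt-Nd4 gene (chrM:10167-11544) and the mt-Co3 gene (chrM:8607-9390) are the 3 that lack a full stop codon, and a tRNA gene follows them after 0, 1 and 0 bases. The mt-Atp6 gene (chrM:7927-8607) overlaps mt-Co3 by 1 base and is overlapped by 43 bases of mt-Atp8. Reads that fall in such overlaps, and in the 7 bases that mt-Nd4l and mt-Nd4 share, can be assigned to either gene or to none, which makes the low values of mt-Atp8 and mt-Nd4l uncertain.

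In PBS libraries the 10 transcripts together took 4.50% and 4.62% of the UMIs of an average EC in spontaneous tumours and 4.29% and 4.35% in implanted tumours. Levels were compared between genes after division by gene length, as CPM per kilobase, although UMIs count 3′ ends and not length. On this scale mt-Atp6, a subunit of the proton channel of ATP synthase, was highest at 14232 to 15487 CPM per kilobase over the 4 PBS libraries. It was followed by the cytochrome c oxidase subunits mt-Co3 (10690 to 11627) and mt-Co2 (9470 to 9972), with no overlap between these neighbours. The catalytic cytochrome c oxidase subunit mt-Co1 stood at 3991 to 4335 CPM per kilobase and overlapped with mt-Cytb, the cytochrome b of complex III, at 3649 to 4072. The subunits of complex I, the NADH dehydrogenase, were the lowest 5, from mt-Nd1 at 2424 to 2673 through mt-Nd2 and mt-Nd4, which overlapped, and mt-Nd3 to mt-Nd5 at 190 to 224 CPM per kilobase. Without division by length, mt-Nd3 and mt-Nd5 overlapped over the PBS libraries, at 397 to 429 and 346 to 408 CPM. The ranges of mt-Co1 and mt-Co2 then overlapped as well, so the order of the genes depends on this division.

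At least 1 UMI of mt-Atp6 was found in 95.5% to 99.3% of ECs of a library, and of mt-Co1 in 94.0% to 98.8%. For the low mt-Nd3 and mt-Nd5 the shares were 78.0% to 87.5%, and 58.9% and 61.4% in the shallow library. Free RNA in the droplets also gives such UMIs, and cells without a Pecam1 value held a mean share of 1.28% to 3.64% in the 10 transcripts.

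**Figure D1:**
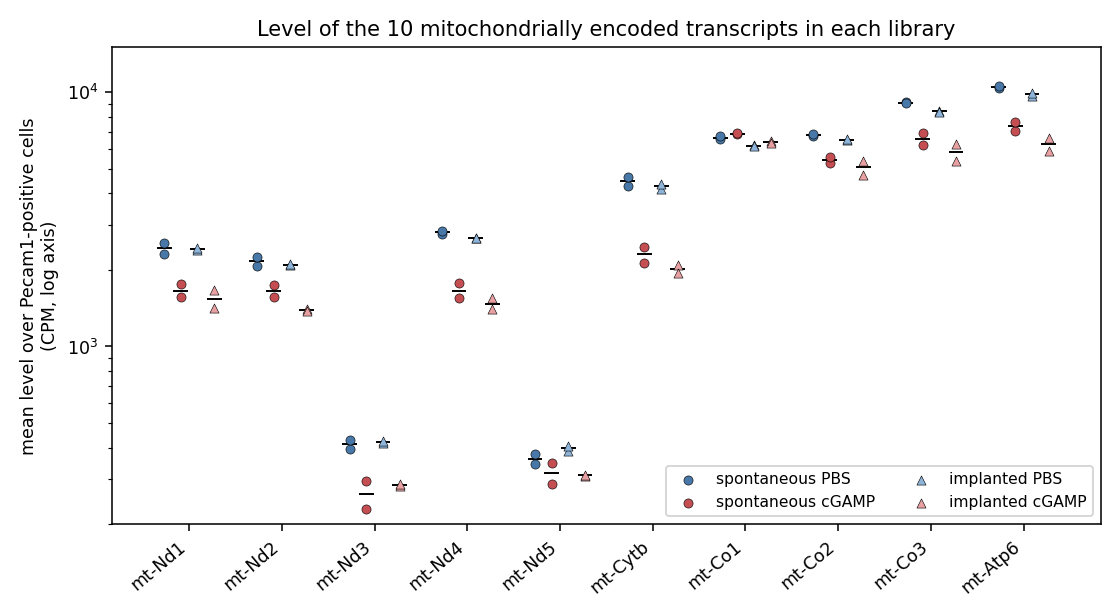
Mean level of each of the 10 transcripts over ECs (CPM, log axis) in each of the 8 libraries, circles for spontaneous and triangles for implanted tumours, blue for PBS and red for cGAMP, with a line at the mean of each group of 2. For mt-Cytb the cGAMP libraries sit between 1952 and 2464 CPM and the PBS libraries between 4175 and 4659 CPM, whereas for mt-Co1 all 8 libraries sit between 6167 and 6908 CPM.

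After cGAMP most of the transcripts were lower, by unequal amounts. The share of UMIs in the 10 transcripts was 3.26% and 3.53% per EC in spontaneous cGAMP libraries and 3.20% and 2.90% in implanted cGAMP libraries. Group means were 4.56% ± 0.0861 (SD, n = 2) with PBS and 3.40% ± 0.192 with cGAMP in spontaneous tumours, and 4.32% ± 0.0407 and 3.05% ± 0.207 in implanted tumours. The difference relative to PBS was therefore -25.5% in spontaneous and -29.4% in implanted tumours, and the cGAMP libraries did not overlap with the PBS libraries of their model.

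Cytochrome b showed the largest difference. The level of mt-Cytb was 4274 and 4659 CPM in spontaneous PBS, 2138 and 2464 CPM in spontaneous cGAMP, 4175 and 4368 CPM in implanted PBS, and 2099 and 1952 CPM in implanted cGAMP. Every cGAMP library lay below every PBS library, and the log2 differences (on log2(CPM + 1), cGAMP minus PBS, with the SE of the limma fit) were -0.96 ± 0.087 in spontaneous and -1.08 ± 0.087 in implanted tumours. Next to it stood mt-Nd4, a membrane subunit of complex I. It measured 2771 and 2847 CPM in spontaneous PBS, 1546 and 1769 CPM in spontaneous cGAMP, 2661 and 2676 CPM in implanted PBS, and 1544 and 1399 CPM in implanted cGAMP, with log2 differences of -0.76 and -0.86.

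Cytochrome c oxidase subunit 1 was the exception. The level of mt-Co1 was 6547 and 6698 CPM in spontaneous PBS and 6835 and 6908 CPM in spontaneous cGAMP, and it was 6169 and 6167 CPM in implanted PBS and 6410 and 6318 CPM in implanted cGAMP. Both cGAMP libraries of each model were thus slightly above its PBS libraries, by a log2 difference of 0.05 ± 0.063 in either model, an amount smaller than the SE. The sign turned negative in 3 of 22 alternative settings in each model, down to -0.08 in spontaneous and -0.20 in implanted tumours with UMIs summed per library. Its partner mt-Co2, which carries the copper centre that receives electrons from cytochrome c, was lower by log2 differences of -0.33 and -0.37, and mt-Co3 by -0.48 and -0.54, in the same order of models.

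The subunit of ATP synthase, mt-Atp6, stood between these values. Its level was 10389 and 10547 CPM in spontaneous PBS against 7030 and 7626 CPM in spontaneous cGAMP, and 9692 and 9943 CPM in implanted PBS against 6616 and 5864 CPM in implanted cGAMP. The log2 differences were -0.52 and -0.66.

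Among the remaining complex I subunits, which with mt-Nd4 form part of its proton-pumping arm, mt-Nd1 differed by -0.56 and -0.65, mt-Nd2 by -0.40 and -0.59, and mt-Nd3 by -0.66 and -0.55 on the log2 scale in spontaneous and implanted tumours. The smallest difference in this group was that of mt-Nd5. It measured 378 and 346 CPM in spontaneous PBS, 288 and 347 CPM in spontaneous cGAMP, 387 and 408 CPM in implanted PBS, and 311 and 312 CPM in implanted cGAMP. Its spontaneous groups overlapped, and the log2 differences were -0.19 ± 0.094 and -0.35 ± 0.095.

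In spontaneous tumours 8 of the 10 transcripts had both cGAMP libraries below both PBS libraries, beside 41.5% of all 10424 genes fitted, and in implanted tumours 9 of 10 did, beside 41.6% of all genes. The 8 were the same transcripts in both models, beside 25.9% of all genes below in both. Since the transcripts were chosen on this contrast, nothing is read from these counts. The median log2 difference of the 10 was -0.50 in spontaneous and -0.57 in implanted tumours, and that of all genes was -0.10 in either model. Median-of-ratios scaling moved the median of all genes to 0.00 and -0.01 and shifted the 10 by about the same amount, with mt-Co1 at 0.16 and 0.14 and mt-Cytb at -0.86 and -0.98.

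Of the 3 other mitochondrial genes, mt-Nd4l, whose gene ends inside the start of mt-Nd4, had the largest difference of all 13, with 255 and 247 CPM in spontaneous PBS, 107 and 123 CPM in spontaneous cGAMP, 246 and 284 CPM in implanted PBS, and 121 and 115 CPM in implanted cGAMP. Its log2 differences were -1.12 ± 0.098 and -1.16 ± 0.098. The low mt-Atp8 differed by -0.50 and -0.26. The single message of the minus strand, mt-Nd6, at 43.0 to 75.5 CPM over all libraries, differed by -0.27 ± 0.21 and 0.08 ± 0.21, with overlapping implanted groups.

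Set beside the gene map, mt-Co1 and mt-Nd5 are the pair of the 10 genes that end farther than 5 bases before the next gene on their strand. They had the highest and the second highest log2 differences in both models. In implanted tumours the second place was close to a tie, with mt-Nd5 at -0.351 (SE 0.0945) and mt-Co2 at -0.368 (SE 0.0771). Over the 22 alternatives mt-Nd5 went down to -0.656 there and mt-Co2 to -0.631. The second place in implanted tumours therefore depended on the setting. The 2 genes followed at once by a tRNA gene and ending in an incomplete stop codon after which the stop is completed by the tail, mt-Cytb and mt-Co3, differed by unlike amounts, -0.96 against -0.48 in spontaneous tumours. This is a description over 10 genes that lie on the same precursor, and whether gene position bears on the values was not tested.

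**Figure D2:**
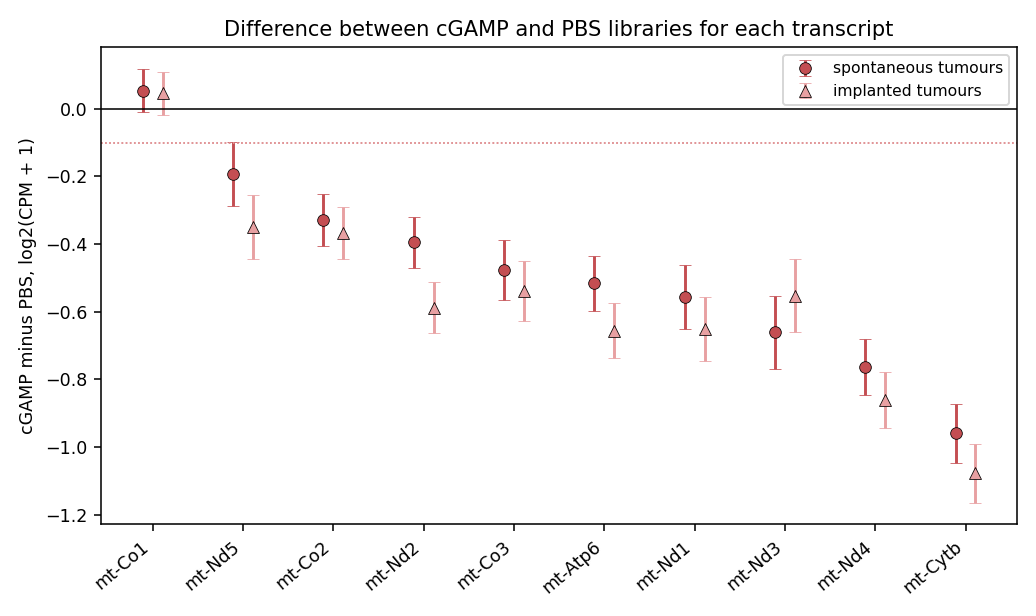
Log2 difference between cGAMP and PBS libraries on log2(CPM + 1) for each of the 10 transcripts, ordered by the value in spontaneous tumours, with circles for spontaneous and triangles for implanted tumours, bars for the SE of the limma fit and a dotted line at the median of all genes (-0.10). The transcripts run from mt-Co1 at 0.05 in both models down to mt-Cytb at -0.96 and -1.08.

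The make-up of the mitochondrial transcript pool differed as well. With mt-Co1 given as a part of the UMIs of the 10 transcripts, it took 14.6% and 14.5% in spontaneous PBS, 21.0% and 19.6% in spontaneous cGAMP, 14.4% and 14.2% in implanted PBS, and 20.1% and 21.8% in implanted cGAMP. The part of mt-Cytb was 9.50% and 10.1% in spontaneous PBS, 6.56% and 6.97% in spontaneous cGAMP, 9.74% and 10.1% in implanted PBS, and 6.57% and 6.72% in implanted cGAMP. For both transcripts the PBS and cGAMP libraries were apart in either model, and the ratio of mt-Cytb to mt-Co1 was 0.674 ± 0.0303 (SD, n = 2) in spontaneous and 0.693 ± 0.0223 in implanted PBS against 0.335 ± 0.031 and 0.318 ± 0.0132 with cGAMP. The parts of mt-Nd1, mt-Nd2, mt-Nd3, mt-Nd5 and mt-Co3 moved by less than 1 percentage point in both models. Those of mt-Nd3 and mt-Nd5 were themselves under 1% with PBS, so this limit says little about them. The mean part of mt-Nd3 was 0.905% with PBS and 0.770% with cGAMP in spontaneous tumours, and 0.973% and 0.941% in implanted tumours. That of mt-Nd5 was 0.795% and 0.933%, and 0.920% and 1.02%.

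The same was seen within single cells. In ECs with at least 100 UMIs of the 10 transcripts, each thinned to 100 such UMIs, the median number from mt-Co1 was 14 to 15 in the 4 PBS libraries and 20 to 22 in the 4 cGAMP libraries, and the median number from mt-Cytb was 10 and 6. These cells were 82.0% to 91.8% of the ECs of a library, except in replicate 1 of implanted cGAMP, where they were 51.1%. Without thinning, mt-Co1 took on average 14.4% to 14.9% and 20.6% to 23.0% of the UMIs of the 10 transcripts in these cells.

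Depth was looked at next, because replicate 1 of implanted cGAMP was shallow. In ECs of 4000 to 8000, 8000 to 16000 and 16000 to 32000 UMIs, both cGAMP libraries of each model had a lower share in the 10 transcripts than both PBS libraries. From 8000 to 16000 UMIs the shares were 4.96% to 5.02% against 3.28% to 3.86% in spontaneous tumours and 4.89% to 4.97% against 2.69% to 3.20% in implanted tumours. From 2000 to 4000 UMIs the groups overlapped in both models. From 500 to 2000 UMIs the share in spontaneous tumours was 2.10% to 2.41% with PBS and higher, 2.45% to 3.41%, with cGAMP, and in implanted tumours 1.05% to 1.55% with PBS overlapped with 1.23% to 3.57% with cGAMP. The part of mt-Co1 in the 10 transcripts stayed at 12.9% to 14.9% in PBS and 18.2% to 22.6% in cGAMP libraries over all 5 depth ranges, with no overlap in any of them.

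**Figure D3:**
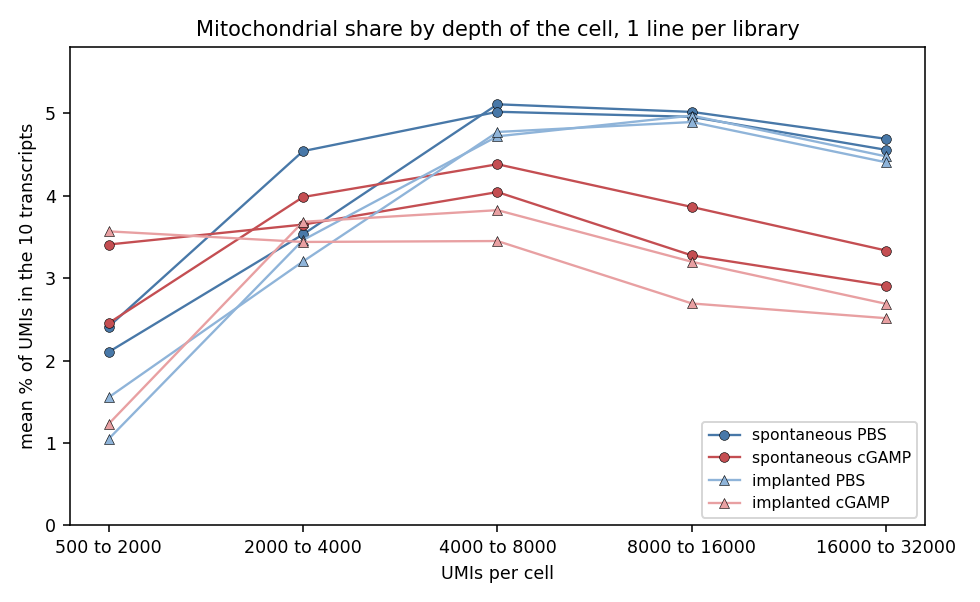
Mean percentage of UMIs in the 10 transcripts in ECs of 5 ranges of UMIs per cell, 1 line per library, circles for spontaneous and triangles for implanted tumours, blue for PBS and red for cGAMP. From 4000 UMIs upwards the 4 PBS lines lie above the 4 cGAMP lines, and below 4000 UMIs they cross.

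Other measures moved with the treatment too. Summed over its markers, the immune list (8 of 8 found) stood at 13.3 to 16.9 CPM in spontaneous PBS, 28.7 to 34.6 in spontaneous cGAMP, 10.3 to 23.7 in implanted PBS and 52.8 to 212 in implanted cGAMP ECs. The fibroblast list (6 of 6) stood at 13.2 to 64.9, 98.4 to 99.2, 13.4 to 18.5 and 60.1 to 89.2 CPM in the same order, and the mural list (9 of 9) at 290 to 682, 749 to 970, 247 to 267 and 224 to 425 CPM. Epithelial tumour markers (7 of 7) reached 367 CPM in the shallow library and at most 156 CPM elsewhere, and the platelet list at most 32.0 CPM. The erythroid list stood at 2.39 to 3.82 CPM in spontaneous PBS and 34.0 to 37.1 in spontaneous cGAMP ECs. In implanted tumours it overlapped, at 0.27 to 9.45 CPM with PBS and 1.63 to 30.05 with cGAMP. No marker of these lists was at 0 in all libraries. Vessel markers moved as well. In implanted tumours the lymphatic list stood at 412 to 584 CPM with PBS and 1736 to 1759 CPM with cGAMP, the tip-like list at 756 to 918 and 1179 to 1404, and the AQP7+ capillary list at 6635 to 6782 and 3611 to 5437 CPM. Within the tip-like list Angpt2 went from 64 and 42 to 295 and 321 CPM there, whereas Esm1, Nid2 and Lxn were lower with cGAMP. In spontaneous tumours the lymphatic, tip-like and AQP7+ capillary lists overlapped between treatments, with tip-like at 877 to 1014 and 987 to 994 CPM. The arterial list stood at 2087 to 2437 CPM with PBS and 1138 to 1282 CPM with cGAMP in implanted tumours. In spontaneous tumours it stood at 1780 to 1895 and 1281 to 1427 CPM. The stalk-like list stood at 1626 to 1725 and 1351 to 1414 CPM in spontaneous tumours. In implanted tumours it stood at 2243 to 2476 and 1616.5 to 2230 CPM. The part of these shifts in the mitochondrial values over all ECs was not tested, and the values within classes are given further on. When ECs with any UMI of 8 defining markers of mural, epithelial, immune and fibroblast cells were left out, the log2 ratio of the mitochondrial share, cGAMP to PBS, was -0.41 in spontaneous and -0.45 in implanted tumours, against -0.42 and -0.50 with all ECs. Proliferative markers summed to 342 to 489 CPM with PBS and 163 to 189 CPM with cGAMP in spontaneous and to 677 to 810 and 149 to 190 CPM in implanted tumours, and without proliferative clusters the log2 ratios were -0.43 and -0.51.

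The nuclear RNA Malat1, often used as a sign of nuclear RNA in a droplet, was at 18032 and 16912 CPM in spontaneous PBS, 18522 and 16315 CPM in spontaneous cGAMP, 13560 and 13606 CPM in implanted PBS, and 18825 and 19911 CPM in implanted cGAMP ECs. In implanted tumours it rose by 0.51 ± 0.084 on the log2 scale (limma, adjusted p = 0.00242) and Neat1, also a nuclear RNA, by 0.59 ± 0.1 (adjusted p = 0.00296), neither was called in spontaneous tumours, and their part in the mitochondrial values was not tested. The share of ECs over 9% mitochondrial UMIs, close to the limit set before deposit, was 2.60% to 4.46% in PBS and 1.34% to 2.16% in cGAMP libraries, and restricting all libraries to ECs with at most 5% gave log2 ratios of -0.21 and -0.45.

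The vessel classes were then compared. ECs were clustered without the 13 mitochondrial genes and without 535 genes raised at least 2-fold by cGAMP, and clusters were named from markers. Clusters named mural (125 cells) and epithelial tumour (87 cells) stayed among the Pecam1-positive cells. Since the classes were still made from other genes of the same cells, their levels are given with no test. With PBS, in libraries with at least 20 such ECs, the share in the 10 transcripts was 4.24% to 4.64% in arterial ECs, 4.89% to 5.37% in stalk-like ECs and 4.65% to 5.28% in tip-like ECs, the sprouting front of a growing vessel. It was 3.76% to 4.61% in AQP7+ capillary ECs, 4.98% to 5.31% in lymphatic ECs and 3.75% to 5.22% in proliferative ECs. Stalk-like and arterial ECs did not overlap with PBS, whereas tip-like ECs overlapped with stalk-like ones.

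Over all libraries, each transcript was compared between 1 class and the mean of the others with the library as a block. In stalk-like ECs all 10 transcripts were above the other classes, with a median log2 difference of 0.20 and a range of 0.07 for mt-Cytb to 0.41 for mt-Nd5, with a median SE of 0.10. This did not hold in every library. The share in the 10 transcripts was higher in stalk-like than in arterial ECs in 6 of 8 libraries, and higher than in tip-like ECs in 6 of 8. In both implanted cGAMP libraries stalk-like ECs had a lower share than arterial ECs, with means of 2.89% and 3.12%. In arterial ECs mt-Cytb was highest, at 0.13, and mt-Nd1 lowest, at -0.15, and the median was -0.03. For tip-like, AQP7+ capillary, proliferative and lymphatic ECs the medians lay between -0.03 and 0.06. With PBS libraries alone the medians were 0.31 in stalk-like, 0.32 in lymphatic and 0.18 in tip-like ECs. All 10 were also above the other classes in the unnamed cluster of 1029 ECs (median 0.14) and in that of 146 ECs, which 2 libraries could give (median 0.27), so this was not particular to stalk-like ECs. The shallow unnamed cluster of 1236 ECs, led by secretory genes such as Spp1, Csn3 and Lcn2 with a median of 1561 UMIs per cell, had all 10 below the other classes, with a median of -0.66, and it is part of the mean with which every other class was compared.

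Within classes that had at least 20 ECs in both libraries of both treatments, both cGAMP libraries had a lower mitochondrial share than both PBS libraries in 5 of 6 classes in spontaneous and in 7 of 8 in implanted tumours. In stalk-like ECs the mean shares were 5.30% with PBS and 3.92% with cGAMP in spontaneous tumours and 4.92% and 2.89% in implanted tumours. In tip-like ECs they were 5.04% and 3.21%, and 4.68% and 2.66%, and in arterial ECs 4.29% and 3.13%, and 4.55% and 3.12%. The exception in both models was the shallow unnamed cluster, where the means were 2.38% with PBS and 3.02% with cGAMP in spontaneous tumours and 1.98% and 2.91% in implanted tumours. Replicate 1 of implanted cGAMP gave 526 of its 1236 cells. Proliferative ECs numbered 9 to 16 in each cGAMP library and could not be compared.

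The make-up of the pool went with the treatment in every class so compared, the shallow one included. The part of mt-Co1 was above its PBS values, and that of mt-Cytb below them, in 6 of 6 classes in spontaneous and 8 of 8 classes in implanted tumours. Over the vessel classes and unnamed clusters with at least 20 ECs in a library, mt-Co1 took 12.0% to 15.9% with PBS and 17.6% to 24.9% with cGAMP. The epithelial tumour cluster, with 65 cells in the shallow library, gave 15.9% there after cGAMP, within the PBS values of the vessel classes, and the mural cluster gave 20.5% and 22.2% in the 2 cGAMP libraries where it could be read. No PBS library held 20 cells of either cluster, so neither has a PBS value of its own, and whether they shifted cannot be told. Cells without a Pecam1 value, which are no ECs by this measure or missed the transcript, gave 12.2% to 13.9% with PBS and 19.1% to 26.3% with cGAMP, so the difference in make-up was not particular to the cells used as ECs, and the part of free RNA in it was not tested.

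**Figure D4:**
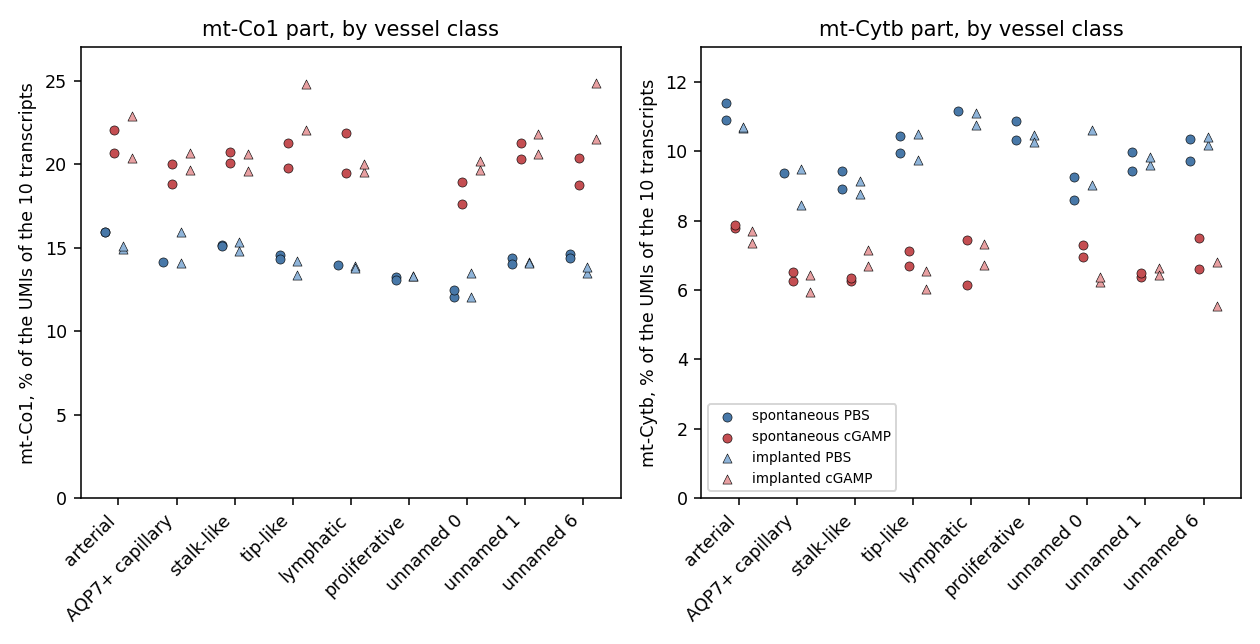
Part of mt-Co1 (left) and mt-Cytb (right) in the UMIs of the 10 transcripts, in percent, for each vessel class and unnamed cluster with at least 20 ECs in a library, 1 point per library, circles for spontaneous and triangles for implanted tumours, blue for PBS and red for cGAMP. In every class with both treatments the red points lie above the blue ones for mt-Co1 and below them for mt-Cytb.

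Implanted and spontaneous tumours were compared in limma over all 10424 genes. The transcripts were chosen on another contrast, but from the same libraries, so the comparison is not independent of that choice. After PBS, 0 of the 10 transcripts were called at an adjusted p under 0.05, beside 7.83% of all genes, and 0 had an unadjusted p under 0.05, beside 24.2%. The log2 differences, implanted minus spontaneous, ran from -0.11 for mt-Co3 (95% confidence interval -0.31 to 0.09) to 0.13 for mt-Nd5 (-0.08 to 0.35), with the lowest adjusted p of 0.36 for mt-Co1 in this limma fit. The interval of mt-Co1 itself was -0.25 to 0.04, so a level lower by more than 0.25 on the log2 scale in implanted tumours lay outside it. The median of the 10 was -0.06, the same as that of all genes, and the libraries of the models did not overlap for 6 of 10, beside 58.0% of all genes.

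After cGAMP, 0 of the 10 were called either, beside 13.8% of all genes, and 2 had an unadjusted p under 0.05, beside 30.3%. These were mt-Nd2, with 1559 and 1741 CPM in spontaneous and 1410 and 1378 CPM in implanted cGAMP libraries, at a log2 difference of -0.24 ± 0.076 (limma, adjusted p = 0.0635), and mt-Atp6, at -0.23 ± 0.081 (limma, adjusted p = 0.0852). The groups did not overlap for 5 of 10, these included, beside 57.1% of all genes. With UMIs summed per library, so that deep cells weigh more, 5 of the 10 were called lower in implanted tumours, namely mt-Nd2, mt-Nd4, mt-Co3, mt-Atp6 and mt-Cytb, by -0.28 to -0.38, with limma adjusted p of 0.0155 to 0.041. The result after cGAMP therefore depends on how cells are weighted. The highest difference was that of mt-Nd3, at 0.14 (-0.11 to 0.38).

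These comparisons share their libraries with the treatment contrast above. The difference between the models in their response to cGAMP gave 0 of 10 calls in limma, beside 0.662% of all genes, and 0 at an unadjusted p under 0.05, beside 13.4%. Values ran from -0.19 for mt-Nd2 (95% confidence interval -0.43 to 0.05) to 0.11 for mt-Nd3 (-0.24 to 0.45), with a lowest adjusted p of 0.47 in limma. For mt-Cytb the difference was -0.12 (-0.39 to 0.16) and for mt-Co1 -0.01 (-0.21 to 0.19). Intervals of this width leave room for responses that differ between the models by up to 0.46 on the log2 scale.

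**Figure D5:**
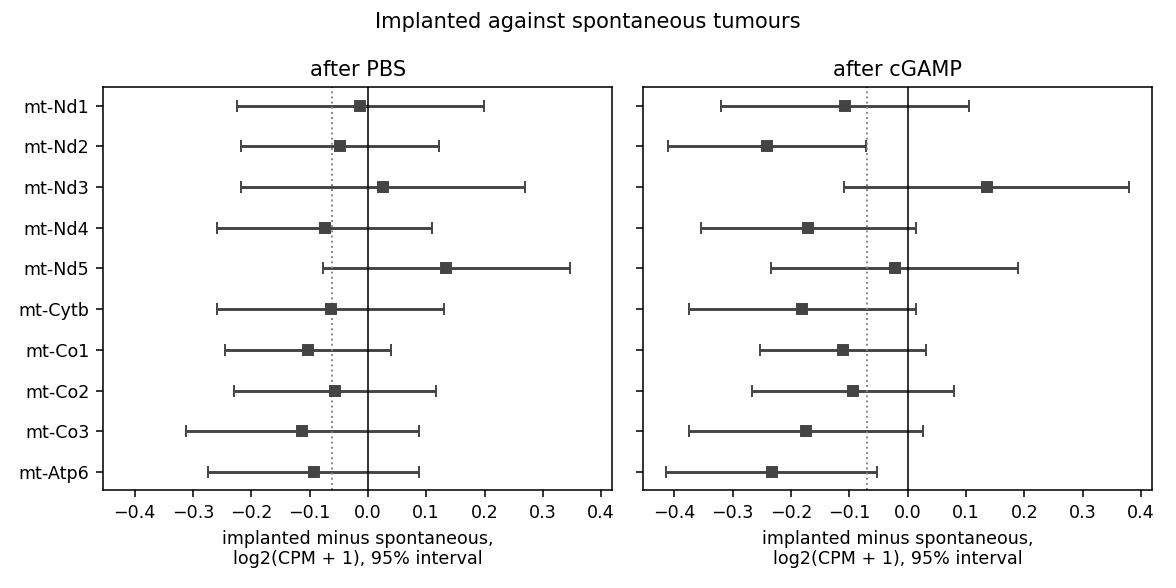
Log2 difference, implanted minus spontaneous, on log2(CPM + 1) for each of the 10 transcripts after PBS (left) and after cGAMP (right), with the 95% confidence interval of the limma fit and a dotted line at the median of all genes. After PBS all 10 intervals include 0, and after cGAMP those of mt-Nd2 and mt-Atp6 lie below it before adjustment.

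The nuclear genes of the same complexes were read from lists. Like the members, these lists were chosen with earlier results of these data known. In implanted tumours cGAMP lowered 34 of 74 nuclear subunit genes of complexes I to IV and ATP synthase and raised 0 (limma, adjusted p under 0.05), beside 25.0% of all genes called, 16.4% lower and 8.60% higher. Their median log2 difference was -0.22, against -0.10 for all genes and -0.57 for the 10 mitochondrial transcripts. By complex, the genes lower were 14 of 36 of complex I, 1 of 4 of complex II, 3 of 9 of complex III, 7 of 11 of complex IV and 9 of 14 of ATP synthase. In spontaneous tumours 3 of 74 fell and 0 rose, beside 12.7% of all genes called, 7.59% lower and 5.09% higher, and the median was -0.07. Without the shallow cluster the count in implanted tumours was 28, with 2757 genes called in all, 33.9% of them higher. The reported fit called 2609 in all, 34.3% of them higher. In the absence of the shallow library, which leaves 1 library in that group, the median was -0.24. Scaling by the median of ratios gave 19 lower in implanted tumours, with 2288 genes called in all, 51.5% of them higher. In spontaneous tumours that scaling gave 0 with a median of 0.03. The difference of the responses was called for 0 of 74 by limma, beside 0.662% of all genes. At an unadjusted p under 0.05 there were 19, beside 13.4% of all genes. Of the 74, 67 had a value below 0, with a median of -0.16 against -0.02 for all genes. The models were thus not shown to differ in response for any single gene here, and the list as a whole was not tested. Between the models themselves, 1 of 74 was higher in implanted tumours after PBS, Ndufc1 (0.31), beside 3.39% of all genes. With median-of-ratios scaling 6 were, with 750 genes called in all, 67.9% of them higher. After cGAMP 3 were lower, Uqcrh (-0.33), Ndufb11 and Atp5j, beside 8.53% of all genes, and with that scaling 0 were.

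Complex III has subunits from both genomes. The small nuclear subunit Uqcr11 fell by 0.65 ± 0.082 on the log2 scale in implanted tumours (limma, adjusted p = 0.000591) and by 0.31 ± 0.082 in spontaneous tumours (adjusted p = 0.0413), and the hinge subunit Uqcrh fell by 0.50 ± 0.072 in implanted tumours (adjusted p = 0.00111), beside -1.08 and -0.96 for mt-Cytb. In complex IV, Cox6c fell by 0.50 ± 0.072 and Cox4i1 by 0.46 ± 0.08 in implanted tumours (limma, adjusted p = 0.0012 and 0.00325). The mitochondrial subunits of this complex differed there by 0.05 for mt-Co1, -0.37 for mt-Co2 and -0.54 for mt-Co3. In complex I, Ndufb10 fell by 0.51 ± 0.09 there and Ndufv3 by 0.48 ± 0.09, and in ATP synthase Atp5h fell by 0.48 ± 0.075 (limma, adjusted p = 0.00357, 0.00428 and 0.00194).

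Genes that act on mitochondrial RNA were read next. Of 19 fitted genes of mitochondrial RNA processing, stability and decay, cGAMP raised 1 and lowered 2 in implanted tumours and raised 1 and lowered 1 in spontaneous tumours, beside 25.0% and 12.7% of all genes called, so neither count stood above its background. Pnpt1, the polynucleotide phosphorylase that degrades mitochondrial RNA and is also an interferon-induced gene, rose by 0.95 ± 0.19 in implanted tumours (limma, adjusted p = 0.00582). Pde12, which removes poly(A) from mitochondrial messages, fell by 0.68 ± 0.13 there (adjusted p = 0.00496). Slirp, which with its partner protein stabilises mitochondrial messages, rose by 0.43 ± 0.1 in spontaneous tumours (limma, adjusted p = 0.0244), and the oligoribonuclease Rexo2 fell there by 0.37 ± 0.092 (adjusted p = 0.0314). Pnpt1 and Pde12 also differed between the models after cGAMP, by 0.88 ± 0.19 and -0.62 ± 0.13 (limma, adjusted p = 0.0168 and 0.015).

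The counts of the lists that follow stand beside 25.0% of all genes called in implanted tumours (16.4% lower) and 12.7% in spontaneous tumours (7.59% lower), and nothing is read from those near or under these shares. Of 9 fitted genes of mitochondrial DNA transcription, 1 fell in implanted tumours, the transcription factor Tfb2m, by 0.95 ± 0.17 (limma, adjusted p = 0.00415), and 0 were called in spontaneous tumours, where 1 had an unadjusted p under 0.05. Of 9 genes of mitochondrial DNA maintenance, the polymerase Polg fell in implanted tumours and the ribonucleotide reductase subunit Rrm2b in spontaneous tumours, by 0.41 ± 0.13 and 0.60 ± 0.15 (adjusted p = 0.0432 and 0.0308). Of 77 mitochondrial ribosomal protein genes, 3 rose and 10 fell in implanted tumours and 2 rose and 3 fell in spontaneous tumours, with Mrpl34 lower in both, by 0.82 ± 0.091 and 0.36 ± 0.091 (limma, adjusted p = 0.000279 and 0.032). Of 8 fitted mitophagy genes, Bnip3 rose by 0.79 ± 0.15 and Phb2 fell by 0.36 ± 0.1 in implanted tumours (limma, adjusted p = 0.00473 and 0.0279). Translation factors (13) and biogenesis regulators (5) gave 0 calls with cGAMP in either model, with 2 to 3 and 0 to 1 genes at an unadjusted p under 0.05 in limma.

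Between the models after PBS, beside 7.83% of all genes called, these lists held 1 call of 77 for ribosomal proteins (Mrpl17, higher in implanted tumours). They held 1 of 2 for nuclear RNAs (Malat1, lower). After cGAMP, Polg, the insertase Oxa1l, the transcription factor Gabpa and the mitophagy kinase Pink1 were lower in implanted tumours and Bnip3, Rexo2 and Neat1 were higher (limma, adjusted p under 0.05). Of the 77 ribosomal protein genes 2 were higher and 4 lower there. The share of all genes called after cGAMP was 13.8%, and nothing is read from these counts. The difference of the responses was called for 0 genes of any of these lists, beside 0.662% of all genes. At an unadjusted p under 0.05 in limma there were 9 of 77 ribosomal protein genes and 2 of 19 RNA processing genes, beside 13.4% of all genes. Translation factors gave 1 of 13, mitophagy genes 1 of 8, and the remaining mitochondrial lists 0. Both nuclear RNAs, Malat1 and Neat1, were among those under 0.05, with a median difference of 0.51 against -0.02 for all genes.

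The genes whose levels followed the summed level of the 10 transcripts most closely over the 8 libraries, among 8361 others with a mean of at least 10 CPM, were Gnb5 (Pearson's r = 0.99, Spearman's rho = 0.98), Calcrl (0.99 and 1), Dad1 (0.99 and 1), Fam171a2 (0.99 and 0.98) and Gpaa1 (0.99 and 0.93). The libraries fall into treatment groups, so these values describe the same contrast and carry no p. Calcrl, the endothelial receptor subunit for adrenomedullin, was at 179 to 198 CPM in PBS and 104 to 138 CPM in cGAMP libraries.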

How the data were processed

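The members and the gene lists were chosen with earlier results of these data known. Per the labels and methods, the authors prepared 10x Chromium 3′ v3 libraries, mapped the reads to mm10 with Cell Ranger 3.0.0, and with Seurat 3.1.1 dropped cells under 500 genes, cells over 10% mitochondrial transcripts and genes seen in under 3 cells. They deposited natural log values per cell, ln(1 + UMIs × 10000 / total), from which UMIs were recovered as whole numbers (100% within 0.01). The deposited cell numbers differ from those in the supplement of the study. All value columns belonged to a library (0 unused).

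Levels were means over ECs of CPM per cell. The log2(mean CPM + 1) was fitted with limma 3.58.1 (eBayes with trend, 4 groups in 1 fit, Benjamini-Hochberg over all genes), for the 10424 genes that reached 5 CPM in 2 or more libraries. Each group has 2 libraries, so p-values measure only the spread between these libraries, pooled over groups. The fit was tested on simulated data for implanted against spontaneous after PBS, with 200 of 10424 genes changed 2-fold. It called 143 of these (71.5%) and 9 unchanged genes. ECs were clustered in Seurat 5.3.0 (R 4.3.3; 2500 variable features, 30 components, resolution 0.5) and named where 3 or more markers of a list were each present in 20% or more of its cells and raised by 0.5 or more on the log2 scale. A cluster with none of its list among its 10 leading genes and under 2 in 3 of the list qualifying stayed unnamed, a condition added after seeing the data. Doublets were not called. Named were all mitochondrial genes, of each list the called genes with the largest change (at most 2 per direction, at least 5 CPM on average), and the 5 genes most like the members. Transcript sequences and coordinates are from GENCODE vM21 (GRCm38).

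The alternatives were another scaling, other pseudocounts (0.1 and 5 CPM), no filter, other choices of cells, UMIs summed per library, the median over cells, a denominator without mitochondrial genes, a replicate block, and leaving out each library. Leaving out the shallow cluster or ECs under 1% mitochondrial UMIs, and all alternatives for the nuclear subunit genes, were chosen after seeing the data.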

Additional observations from a re-analysis of the deposited data

How the results depend on the processing

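With 2 libraries a group, differences under about 0.2 on the log2 scale could not be told from the spread, and larger ones could be missed. In the simulated data only 71.5% of 2-fold changes were called, a rate for 200 of all 10424 genes and not for the 10 transcripts. After PBS, and for the difference of the responses, 0 of the 10 transcripts were called in limma under 22 alternatives. After cGAMP 1 was called with at most 5% mitochondrial UMIs (mt-Nd2, -0.33), 5 with UMIs summed, and 0 to 1 when 1 library was left out (mt-Atp6, -0.32, without replicate 1 of implanted cGAMP). In all 23 settings, the reported one included, mt-Cytb had the lowest and mt-Co1 the highest cGAMP difference in either model. Settings that only rescale a library cannot change this order. With at most 5% mitochondrial UMIs the spontaneous difference of mt-Nd5 turned to 0.0062. Values that were not called changed sign in 15, 7 and 18 of 220 combinations of transcript and alternative after PBS, after cGAMP and for the difference. The causes were not tested.

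The log2 ratio of the share was -0.21 (at most 5% mitochondrial UMIs), -0.57 (UMIs summed), -0.54 (median over cells) and -0.51 (without the shallow cluster) in spontaneous tumours. In implanted tumours it was -0.42 (all deposited cells), -0.62 (cells of 4000 to 20000 UMIs), -0.77 (UMIs summed and also median over cells) and -0.61 (without the shallow cluster), and leaving out 1 library gave -0.57 to -0.43.

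Counts over all genes were 816 (implanted against spontaneous after PBS), 1434 (after cGAMP), 69 (difference of the responses), 1322 (spontaneous cGAMP) and 2609 (implanted cGAMP). Without a filter on low values, which tests more genes, the first 4 were 327, 784, 0 and 812. Median-of-ratios scaling moved the share of calls that were higher from 43.3% to 67.9%, 38.0% to 58.7%, 40.2% to 66.4% and 34.3% to 51.5%, leaving out the difference. With no UMI of other lineages the counts were 401, 796, 704 and 1598, again without the difference. With UMIs summed, 1317 after PBS, 112 for the difference and 2839 for spontaneous cGAMP were called, with at most 5% mitochondrial UMIs 515 after PBS, and with all deposited cells 43 for the difference. Leaving out 1 library gave 212 to 1234, 156 to 1447, 2 to 171, 448 to 1808 and 1265 to 2495. For nuclear subunit genes median-of-ratios scaling gave 0 lower after cGAMP between the models, 0 in spontaneous and 19 in implanted tumours, and without replicate 1 of implanted cGAMP 5 fell in spontaneous tumours.

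The median of the 10 transcripts in arterial ECs, -0.03, was 0.04 with PBS libraries only and 0.01 with classes of at least 50 cells.

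Replicate numbers did not pair the samples: their deviations correlated at -0.22 to 0.13 between groups. The replicate block gave 741, 1362, 58, 1230 and 2524 genes and 0 of 10 transcripts in each comparison between models.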
